A study of Arabidopsis thaliana with 6 samples.

Results

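Signals of 6 genes of the Arabidopsis thaliana root cap were followed across the root apex, each on 1 probe set among the 22746 tested. Of these, 4 encode NAC transcription factors, SMB (SOMBRERO, AT1G79580), BRN1 (BEARSKIN 1, AT1G33280), BRN2 (BEARSKIN 2, AT4G10350) and FEZ (AT1G26870), and 2 encode cellulases, CEL5 (AT1G22880) and CEL3 (AT1G71380). They were taken by locus from the authors' deposited comparison table and joined by probe set to the signal table of the 6 arrays. None was chosen by a measured threshold. Wild-type Col-0 seedlings, 8 days old and grown in continuous light on vertical plates, were preserved in RNAlater and their root tips were cut into 2 pieces. Zone I was the 0.5 mm from the tip, which holds the root cap and the dividing cells, and zone II was a section of 1.5 mm that takes in cell elongation and the first root hairs. There were 3 arrays per zone, and all 6 arrays share genotype, age and treatment. Whether separate seedlings stand behind the arrays of a zone is not in the labels, and a p-value here therefore covers only array-to-array spread, which could be technical.

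The root cap is a sheath of cells around the root tip that is made by its own stem cells, matures within a short distance and is then shed or dies. FEZ promotes the divisions of the cap stem cells, and SMB counters FEZ in their daughters and drives them to mature. BRN1 and BRN2 act with SMB in the late maturation of the cap and in the release of its outer cells. CEL3 and CEL5 are endoglucanases of glycosyl hydrolase family 9 (GH9), which cut wall glucans, and CEL5 is known for its part in the shedding of cap cells.

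The signals are intensities on a linear scale, with the median of all signals at 140.3 and no detection calls. Signals of different probe sets cannot be set against each other, so each gene was compared with itself between the zones. All 5 root hair markers were higher in zone II, and their summed signal was 105.6 to 257.7 in zone I against 23053 to 34072 in zone II. COBL9 among them reached 157.1 and 98.5 on zone I arrays 1 and 2. Division and meristem markers summed to 2822 to 4998 in zone I and to 96.8 to 511.8 in zone II. No marker was listed at 0 on any array. Among all probe sets, 8623 (37.9%) were called different between the zones at an adjusted p under 0.05 (limma), 19.8% as higher in zone I and 18.1% as higher in zone II.

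All 6 genes had the higher mean signal in zone I, and 4 were called, SMB, BRN1, FEZ and CEL5, against the 19.8% of all probe sets called in that direction. BRN2 and CEL3 did not pass. The differences of the 4 called genes ran from -4.83 to -4.08 on the log2 scale (zone II minus zone I), and from -3.42 to -1.12 with 64 added to every signal. Their size without an offset rests on zone II signals as low as 1.30, for which no detection calls are given. In pieces of tissue, fewer cells of a type and less RNA per cell cannot be told apart. For SMB, BRN1, BRN2 and FEZ no array of zone I overlapped an array of zone II, while 49.9% of all probe sets had no overlap in either direction and 26.4% had none with zone I higher. With 64 added to every signal 5 of the 6 were called (21.2% of all probe sets in that direction), and without zone I array 1 there were 4 (16.2%). The count was 1 without zone I array 2 (SMB) and 1 without the intensity trend in the variance model (BRN1). The share of all probe sets toward zone I is not printed here for these settings, so these counts are not read as a result about the 6 genes. Over all alternatives 7081 to 9159 were called in either direction.

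SMB, the regulator of cap maturation, had signals of 163.2, 396.8 and 378.7 on zone I arrays 1, 2 and 3, and 109.8, 3.15 and 3.07 on zone II arrays 1, 2 and 3. The zones did not overlap, but zone II array 1 lay close to zone I array 1 and far above the other zone II arrays. The difference was -4.83 ± 1.24 on the log2 scale (zone II minus zone I, SE, n = 3 per zone, limma adjusted p = 0.00955). With 64 added to every signal, which damps the weight of dim signals, it was -1.96. Without the intensity trend in the variance model the adjusted p was 0.0581.

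BRN1 had signals of 49.7, 349.1 and 327.5 in zone I, and 3.24, 5.14 and 37.7 in zone II. Here the bright zone II array was the third, and zone I array 1 was again the lowest of its zone. The difference was -4.38 ± 1.11 (SE, adjusted p = 0.00917), or -1.76 with 64 added. Its adjusted p was 0.0562 without zone I array 2.

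BRN2, which acts beside BRN1 in late cap maturation, had signals of 82.4, 271.9 and 284.4 in zone I, and 80.6, 63.3 and 2.40 in zone II. The lowest zone I array and the highest zone II array nearly met. BRN2 lay at -3.01 ± 1.20 (SE, adjusted p = 0.0714), with a 95% interval of -5.65 to -0.36. The adjusted p was 0.0301 with 64 added (-1.27), 0.0385 with 16 added (-1.97), 0.0294 without zone II array 1 (-3.91) and 0.0427 when both first arrays were dropped (-4.50). Without zone II array 3, the dimmest, the difference was -1.38. Over 15 alternatives BRN2 stayed uncalled in 11, with a limma adjusted p of up to 0.202.

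FEZ, the stem cell factor, was dim in zone II on every array. Its signals were 41.4, 112.4 and 160.1 in zone I, and 1.30, 31.2 and 1.84 in zone II. Only zone II array 2 came near the zone I values. The difference of -4.43 ± 1.28 (SE, adjusted p = 0.0179) was -1.12 with 64 added. The call was lost without the intensity trend (adjusted p = 0.0534), with zone I array 2 (0.0665) or array 3 (0.0730) left out, and with both first arrays dropped (0.0574).

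CEL5, the cellulase of cap shedding, had the widest spread within zone I of the 6 genes. It stood at 154.7, 5545 and 3643 in zone I, and at 163.7, 48.2 and 81.8 in zone II. Arrays 2 and 3 of zone I were far above every other array, while zone I array 1 lay just below the highest zone II array, so the zones overlapped. The difference was -4.08 ± 1.07 (SE, adjusted p = 0.0109), or -3.42 with 64 added. Without zone I array 1 it was -5.70 (adjusted p = 4.27e-05), with both first arrays dropped -6.16, and without zone I array 2 it was -3.12 (adjusted p = 0.0628). The call was also lost without the intensity trend (adjusted p = 0.0841) and with robust variance estimates (0.0990).

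CEL3, the other cap cellulase, was far less divided between the zones. Its signals were 34.9, 189.8 and 134.3 in zone I, and 102.7, 23.0 and 27.2 in zone II. The zones overlapped, because zone I array 1 was near the dim zone II arrays and zone II array 1 was near the bright zone I arrays. The difference was -1.26 ± 0.84 (SE, adjusted p = 0.280), with a 95% interval of -3.12 to 0.60. It passed once both first arrays were dropped (-2.68, adjusted p = 0.0254).

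**Figure D1:**
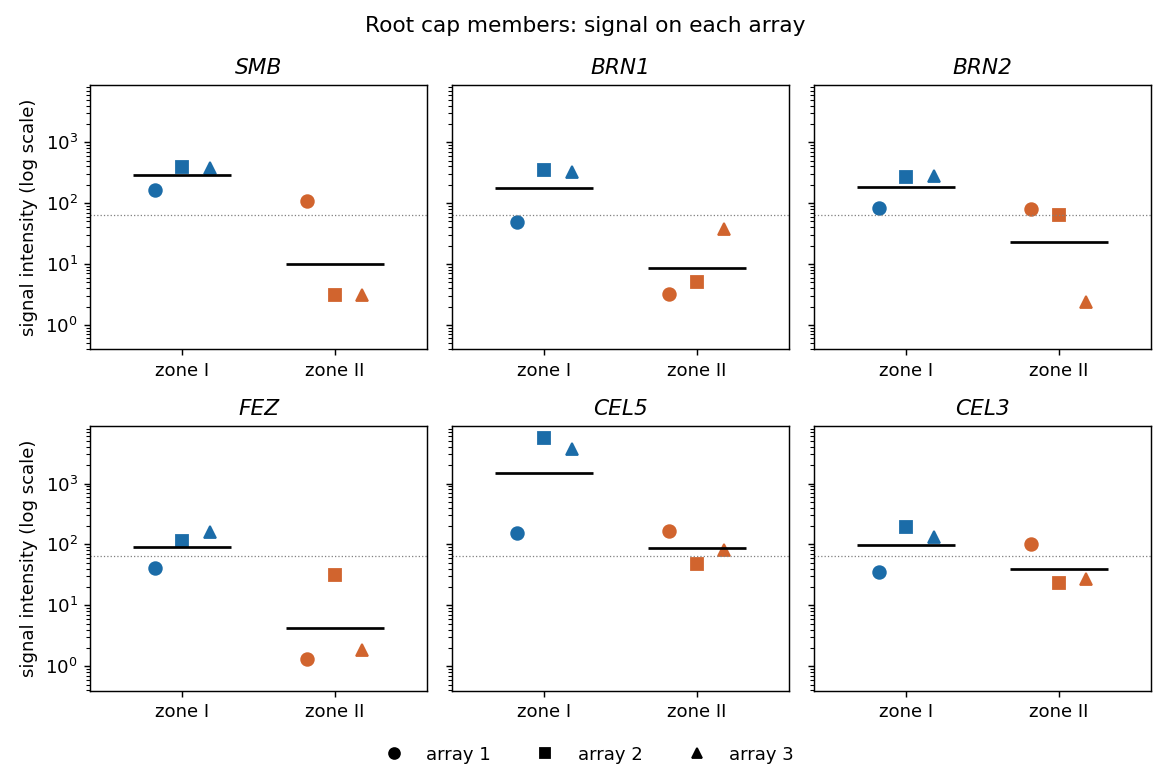
Signal intensity (vertical, log scale) of each of the 6 genes on the 3 arrays of zone I (blue) and of zone II (orange); the marker shape gives the array number, the black bar the geometric mean of 3 arrays, and the dotted line a signal of 64. In every panel the circle of zone I array 1 is the lowest blue point, and for CEL5 it stands at 154.7 beside 5545 and 3643.

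**Figure D2:**
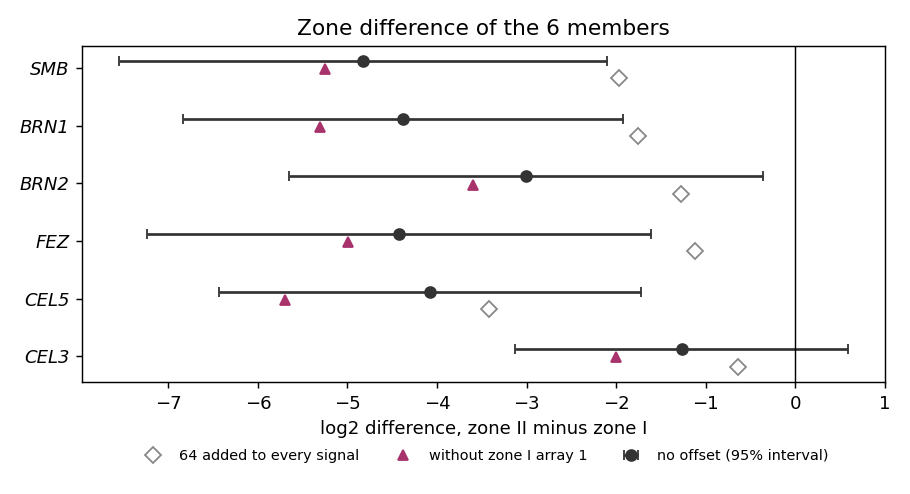
Log2 difference between the zones (horizontal, zone II minus zone I) of the 6 genes, as fitted with a 95% interval (black), with 64 added to every signal (open diamonds) and without zone I array 1 (triangles). All points are below 0, the interval of CEL3 crosses 0, and leaving out zone I array 1 moves CEL5 from -4.08 to -5.70.

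The authors' deposited table gives log2 fold changes of the same sign for all 6 genes, if its undocumented direction is read as zone II over zone I. Of the 6 genes, 5 pass an adjusted p of 0.05 in the authors' deposited table, BRN2 among them, where 25.6% of all probe sets pass with a negative value. The authors' deposited table lists -2.87 for SMB, -2.20 for BRN1, -2.30 for BRN2, -1.12 for FEZ, -3.79 for CEL5 and -0.55 for CEL3. CEL3 does not pass in the authors' deposited table either, with an adjusted p of 0.205.

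The cellulases were compared within each array, as log2 CEL5 minus log2 CEL3. This difference was 2.15, 4.87 and 4.76 on the zone I arrays, and 0.67, 1.07 and 1.59 on the zone II arrays. All zone I arrays were above all zone II arrays. The change was -2.82 (exact two-sided permutation test, p = 0.1, which is the smallest p that 3 against 3 arrays allow, and 0.3 adjusted over 3 pairs). For BRN1 minus BRN2 the change was -1.37 (exact p = 0.6) and for SMB minus FEZ it was -0.41 (exact p = 0.8), and in both pairs the zone II arrays were spread on both sides of the zone I arrays.

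All 6 genes had their lowest zone I signal on array 1, and on that array each was at least 2-fold below the mean of zone I arrays 2 and 3 on the log scale. This held for 15.6% of all probe sets, for 1.98% of the 11211 probe sets whose zone I mean was above the median signal, and for 3.1% of those called higher in zone I. Zone I array 1 took part in forming the brighter and the called sets, and a call disfavours spread within a zone. The low shares in those sets are therefore partly built in, and only the 15.6% is free of such a choice. On zone I arrays 2 and 3, where 10.3% and 11.7% of all probe sets were that far below the others, 0 of the 6 genes were. On zone II arrays 1, 2 and 3, 2, 4 and 3 of the 6 genes were at least 2-fold below the other arrays of the zone, against 14.5%, 12.8% and 14.8% of all probe sets. CEL5 was 29.0-fold below, which ranked 1 among these 11211 brighter probe sets. BRN1 was 6.80-fold below (rank 12), BRN2 3.38-fold (rank 34) and SMB 2.37-fold (rank 93). FEZ and CEL3, whose zone I means were under the median signal, were 3.24-fold and 4.58-fold below. Over all 22746 probe sets, dim ones included, the order was less extreme. There, 70 probe sets were at or below CEL5 (0.308%), 949 at or below BRN1 (4.17%), 2018 at or below BRN2 (8.87%) and 2896 at or below SMB (12.7%). For CEL3 and FEZ these numbers were 1508 (6.63%) and 2099 (9.23%).

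The drop was of other sizes among further genes of zone I. The polygalacturonase gene RCPG (AT1G65570), which loosens pectin between cap cells and is known as a target of BRN1, had signals of 57.1, 512.7 and 766.9 in zone I and was 11.0-fold below on array 1 (rank 7). ARF16, an auxin response factor needed for the columella, the central part of the cap, was 1.01-fold below. The stem cell factors PLT1 and PLT2 were 1.29-fold and 1.37-fold below, and the cytokinesis syntaxin KN 1.65-fold. Of the 6 division and meristem markers 1, the mitotic cyclin CYCB1;3, was at least 2-fold below, at 2.87-fold, which is further than SMB. Of the 23 other cap genes 2 were, RCPG and CDF4 (2.14-fold), and of the 21 other GH9 genes 7 were, against 15.6% of all probe sets. Among those 7, only GH9C3 had a zone I mean above the median signal, and GH9C3 was 2.32-fold below, near SMB. Beside these, the 7 xylem markers summed to 1236 on zone I array 1 against 589.3 and 328.2 on arrays 2 and 3, still far under the 10386 to 15148 of zone II. XCP2 gave 887.9 of the 1236, and LAC17 and CESA7 were at least 2-fold below on that array, opposite to the sum. Whether the make-up of the cut pieces plays a part in the low array was not tested.

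**Figure D3:**
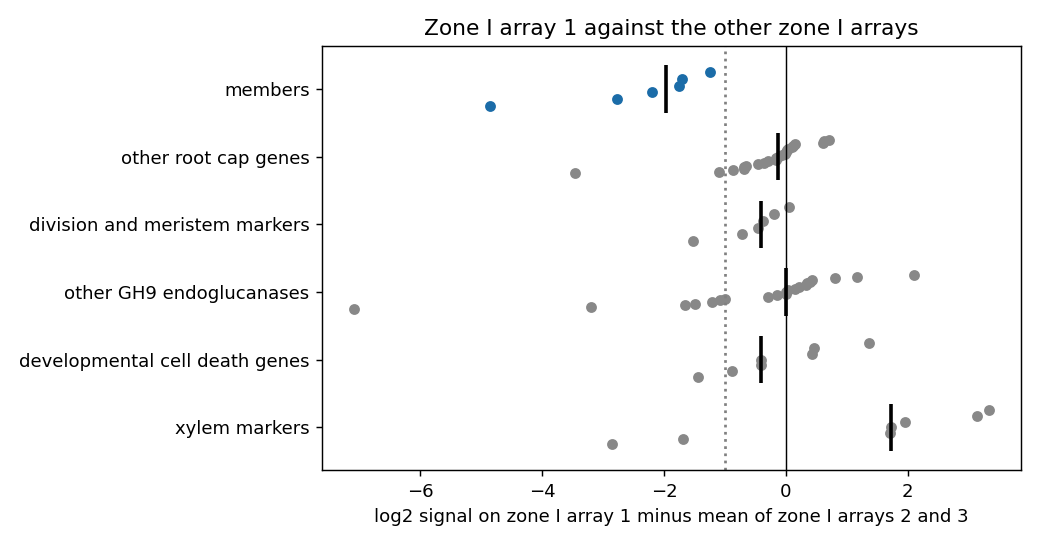
Log2 signal on zone I array 1 minus the mean of zone I arrays 2 and 3 (horizontal) for each gene of 6 lists (rows); black bars are list medians and the dotted line marks 2-fold below. The 6 root cap genes (top row, members) lie between -4.86 and -1.25 with a median of -1.97, and the 23 other cap genes have a median of -0.13.

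In zone II the highest array differed among the genes. Array 1 was the highest for 4 of them, SMB, BRN2, CEL5 and CEL3, array 2 for FEZ and array 3 for BRN1. On array 1, where SMB stood at 109.8, KN stood at 337.8 against 3.10 and 23.0 on arrays 2 and 3. PLT1, by contrast, was lowest on zone II array 1, at 2.27 against 18.8 and 5.43. The part of tissue from near the cut in these values was not tested.

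Among themselves the 6 genes formed 15 pairs, whose Pearson r of log2 signals over the 6 arrays ran from 0.34 for BRN1 with BRN2 to 0.89 for CEL5 with CEL3. These values share the arrays and the zone contrast, and are a description. BRN1 followed CEL5 (r = 0.84) more closely than it followed its relative BRN2.

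The genes nearest to each member were sought among 13163 probe sets above the median signal in their brighter zone, by the Euclidean distance between centred log2 signals over the 6 arrays. The closest of so many candidates over 6 arrays have a high r by selection. They also share the zone contrast, so these matches are a description. Nearest to SMB were POK2, a kinesin of cytokinesis (distance 0.43, r = 0.998), and the spindle checkpoint gene MAD2 (0.99, r = 0.991), both bright on zone II array 1 as SMB was. Nearest to BRN2 were BUB3.2, annotated as a mitotic checkpoint gene (0.73, r = 0.993), and the cell cycle kinase WEE1 (1.20, r = 0.978). FEZ was nearest to COBL1, a COBRA-like gene (1.45, r = 0.976), and to the DNA repair gene BRCA1 (1.78, r = 0.967). In these 3 cases the zone II signals that set the pattern were mostly under 64.

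BRN1 and CEL5 had other neighbours in pattern. BRN1 was nearest to AT5G54370, annotated as related to late embryogenesis abundant (LEA) proteins (distance 1.12, r = 0.995). That gene had signals of 301.3, 4022 and 4168 in zone I and of 25.4, 27.7 and 364.3 in zone II, low on zone I array 1 and high on zone II array 3 as BRN1 was. The second was the arabinogalactan protein gene AGP30 (1.82, r = 0.960). CEL5 was nearest to the jacalin lectin gene AT1G52050 (1.84, r = 0.964) and to AT5G51470, of the auxin-responsive GH3 family (2.02, r = 0.962). CEL3 was nearest to the glycine-rich protein gene AT5G55680 (1.08, r = 0.947) and to AT4G33525, annotated as the copper-transporting ATPase PAA1 (1.16, r = 0.930). Here too dim signals weigh in, since BRN1, AT1G52050 and AT5G51470 were under 64 on every zone II array.

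Other genes known from the cap were divided between the zones. Of 26 listed, 23 had a probe set, and the calls went to zone I in 10 and to zone II in 5, with a median difference of 0.00 (0.05 with 64 added) against -0.04 over all probe sets. Of all probe sets 19.8% and 18.1% were called in these directions, so the share toward zone II was near the background. ARF16 had signals of 532.1, 449.8 and 637.2 in zone I and of 41.5, 36.7 and 24.9 in zone II. Its difference was -3.99 ± 0.42 (SE, adjusted p = 3.40e-05), or -2.61 with 64 added. Its zones were far apart with little spread within each, unlike those of the 6 genes. RCPG lay at -3.98 ± 1.05 (SE, adjusted p = 0.0113; -2.15 with 64 added), and was not called with zone I array 2 (adjusted p = 0.0660) or array 3 (0.0670) left out, nor with no intensity trend (0.0615). IDL1, a peptide gene of the IDA family that is known for a part in cap shedding, went the other way, with signals of 14.98, 53.8 and 4.07 in zone I and of 340.7, 366.9 and 522.1 in zone II. IDL1 lay at 4.76 ± 0.84 (SE, adjusted p = 0.00105), or at 2.44 with 64 added. Its receptor HSL2 lay at 0.69 (adjusted p = 0.182).

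Further genes of that list, named here after their values were seen, are given by role. Among regulators, the receptor kinase gene ACR4 lay at -3.67 (-1.46 with 64 added) and the heat shock factor gene SCZ, known for its part in root stem cell fates, at -3.05. CDF4, a factor that promotes columella differentiation, was higher in zone II at 1.71. The cell cycle regulator gene RBR1 was called toward zone I at -0.55 (adjusted p = 0.0377). ARF10, a relative of ARF16, lay at 0.46 and the peptide gene CLE40 at 0.07, and neither passed (adjusted p = 0.315 and 0.966). Of the genes of gravity sensing and auxin flow, PIN2 (-3.13), ARL2 (-2.64) and the starch enzyme gene PGM1 (-2.19) were higher in zone I, and the auxin importer AUX1 (1.02) was higher in zone II. The auxin exporters PIN3 and PIN7 of the columella lay at 0.14 and 0.20, with adjusted p-values of 0.725 and 0.561. The gravity response genes LZY3 (0.12, adjusted p = 0.873) and ARG1 (-0.37, adjusted p = 0.175) did not pass either. Of the genes of the cuticle that covers the young cap, the acyltransferase genes GPAT4 (3.84, or 0.86 with 64 added) and GPAT8 (1.81, or 1.21) were higher in zone II, and DCR lay at 0.00 (adjusted p = 0.997). QUA1 (-1.11) and QUA2 (-0.68), needed for pectin and for cells to stay attached, were higher in zone I.

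The 7 genes of developmental cell death, several of which are known to depend on SMB in the cap, were all higher in zone II, where 18.1% of all probe sets were called. Their median was 3.37 (1.99 with 64 added). RNS3, a ribonuclease, had signals of 96.7, 104.5 and 155.9 in zone I and of 2931, 2603 and 1082 in zone II (4.12 ± 0.37, SE, adjusted p = 1.40e-05). DMP4 lay at 5.46 and EXI1 at 4.05, from zone I signals as low as 3.17 and 2.36. EXI1 lost its call without the intensity trend (adjusted p = 0.0810), and with zone II array 1 (0.0510), zone II array 2 (0.0571) or both first arrays (0.0767) dropped. Genes of this kind are also used by maturing xylem, and all 7 xylem markers were higher in zone II, with a median of 5.22. The part of xylem cells in these values was not tested. With both first arrays dropped, 4 of the 7 death genes were called, with the share of all probe sets in that setting not given here.

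**Figure D4:**
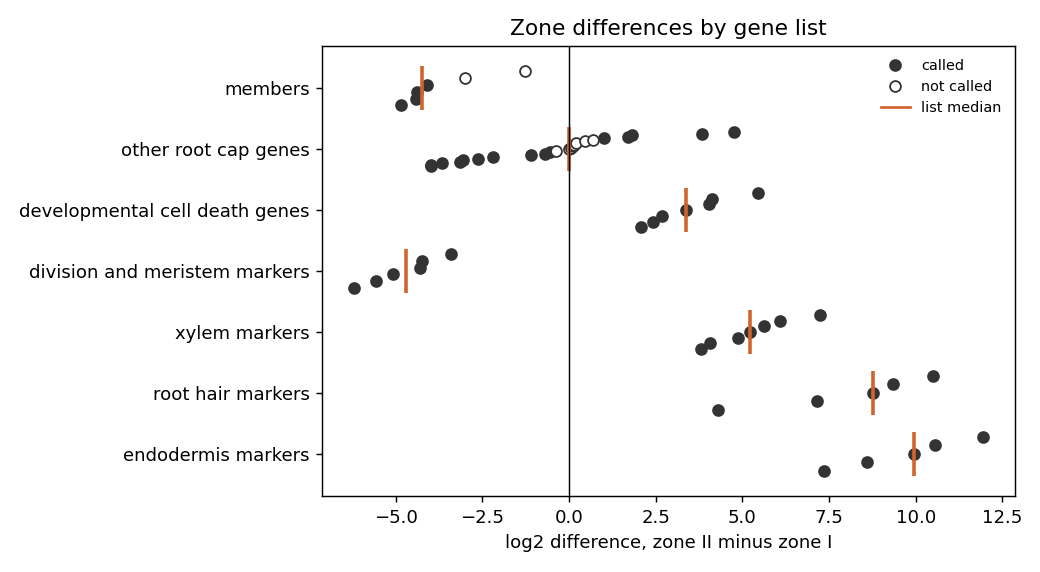
Log2 difference between the zones (horizontal, zone II minus zone I) of each gene in 7 lists (rows); filled points were called at an adjusted p under 0.05, open points were not, and the orange bar is the list median. The 6 root cap genes (top row, members) lie on the side of the division markers (median -4.23 and -4.69), and the cell death genes on the side of the xylem markers (3.37 and 5.22).

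The GH9 family beyond CEL3 and CEL5 had 21 measured genes of 23, with 3 calls toward zone I and 4 toward zone II. Both shares lay near those of all probe sets (19.8% and 18.1%). Their median difference was 0.50 (0.15 with 64 added). GH9C1 had signals of 92.4, 66.1 and 7.07 in zone I and of 10149, 8761 and 7742 in zone II. The difference of GH9C1 was 7.98 ± 0.74 (SE, adjusted p = 1.54e-05), or 6.30 with 64 added. KOR2, a membrane-bound endoglucanase, lay at 3.96 ± 0.32 (adjusted p = 7.23e-06), from 124.7 in zone I to 1939 in zone II. Toward zone I, GH9C3 lay at -2.74 ± 0.49 (adjusted p = 0.00108; -1.89 with 64 added), with zone I signals of 222.7, 590.4 and 450.6. CEL1 lay at -2.10 (-1.91 with 64 added), so that the order of GH9C3 and CEL1 turns with the offset. Without the intensity trend 1 of the 3 genes higher in zone I was called, with the share of all probe sets in that setting not given here.

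The VND and NST genes, NAC factors of the vessel and fibre wall that are related to SMB, BRN1 and BRN2, were called toward zone II in 3 of 10 and toward zone I in 0 of 10, where 18.1% and 19.8% of all probe sets were called. The 3 were VND7 (3.13 ± 0.69, SE, adjusted p = 0.00408), VND1 (2.37 ± 0.69, adjusted p = 0.0194) and VND4 (2.29 ± 0.52, adjusted p = 0.00499). VND7, which switches on vessel formation, had signals of 11.5, 28.4 and 39.0 in zone I and of 120.1, 344.5 and 205.1 in zone II. With 64 added the 3 differences were 1.61, 1.10 and 1.52. VND1 was not called with zone II array 1 (adjusted p = 0.0622), zone II array 2 (0.0664) or both first arrays (0.117) dropped.

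**Figure D5:**
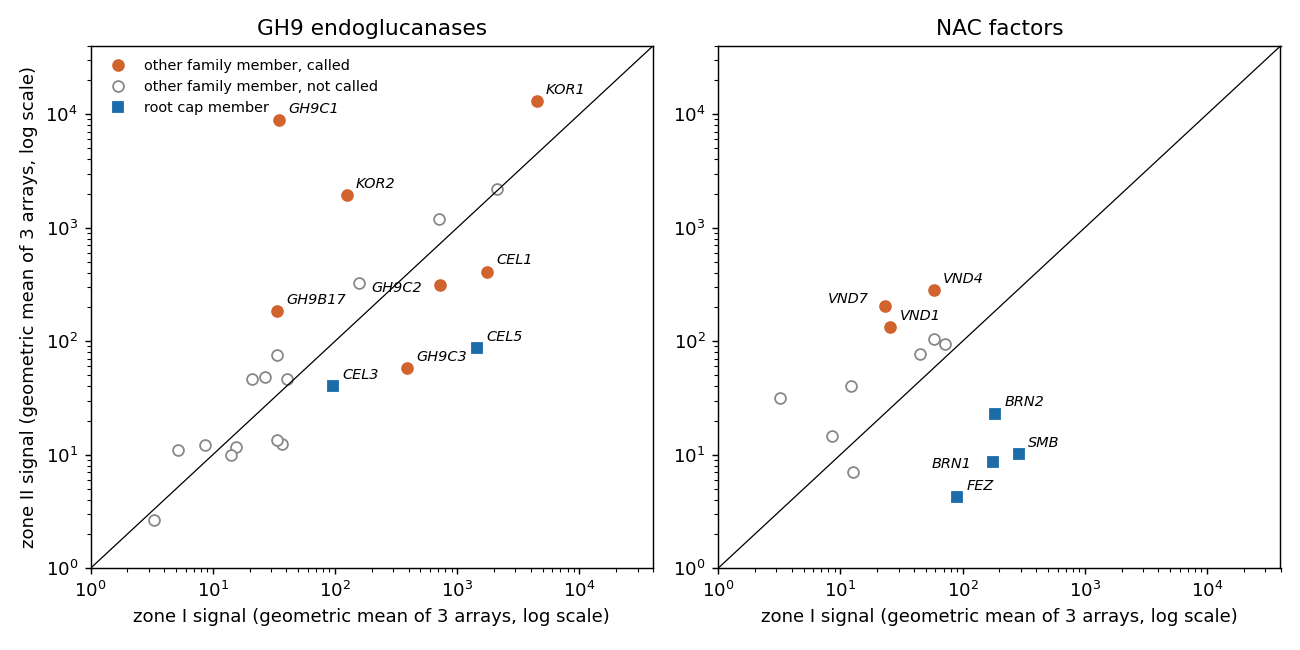
Geometric mean signal of 3 arrays in zone I (horizontal) and zone II (vertical), both on log scales, for GH9 endoglucanases (left) and NAC factors (right); blue squares are the root cap genes, orange points other genes called between the zones, open points genes not called, and the line marks equal signal. Distance from the line is the zone difference, and positions along it cannot be compared between genes. SMB, BRN1, BRN2 and FEZ lie below the line, and VND1, VND4 and VND7 above it.

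The genes next to the 6 loci on the chromosome, in the order of the TAIR10.1 annotation, were 12, of which 10 were measured. Of these, 1 was called toward zone I, 2 toward zone II and 7 in neither direction. Over all probe sets 19.8% and 18.1% were called toward zones I and II, so these few calls do not stand out. The one higher in zone I was AT1G26880 beside FEZ (-1.87 ± 0.17, SE, adjusted p = 1.32e-05). SYP52 beside SMB lay at 2.04 and AT4G10360 beside BRN2 at 1.61, opposite in direction to their neighbours. Neither measured neighbour of BRN1 passed (-0.21 and -1.25, adjusted p = 0.709 and 0.109).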

How the data were processed

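The authors deposited 1 table of linear signal intensity for 22810 probe sets on 6 arrays, credited to MAS5 and Affymetrix Expression Console per the submitters' processing notes. Software versions and settings were not given in the sources used here. Each array has a trimmed mean of 500 after removal of 2% at each end. RNA was isolated with a PicoPure kit and amplified with the Ovation Pico WTA system per the labels' protocols. The authors also deposited a table with a log2 fold change per probe set, beside its p-value before and after adjustment, with no test or direction named in it. Its sign was taken to mean zone II over zone I from a correlation of 0.87, across probe sets, with that difference in the signals.

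The deposited intensity values were kept, log2 was taken with no offset, and 64 control probe sets were left out. The zones were compared in limma 3.58.1 (R 4.3.3; lmFit, eBayes with an intensity trend, no block, two-sided), with Benjamini-Hochberg adjustment over 22746 probe sets and a call at an adjusted p under 0.05. Zone signals are geometric means. All 96 loci of the members and 8 lists were found in the TAIR10.1 annotation table. No build is given for the files, so no coordinates are printed. From each of the lists of other cap, cell death, GH9, and VND and NST genes, the 3 called genes with the largest difference were named. The called gene furthest against the majority of its list was named too. Markers and further genes of these lists, such as CEL1, were named outside this rule. For each member the 2 genes nearest in pattern were named. Members and lists were chosen with earlier results of these data known. Within-array pairs were tested by exact permutation. The number of arrays limits the precision. The fit was run on simulated data with independent normal noise, which does not mimic a single array that stands apart. Figures were drawn with matplotlib 3.10.9 (Python 3.11.15).

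The alternatives tried were a block for replicate number, an offset of 16 or 64, quantile or median scaling, removal of probe sets under the 40th percentile of mean signal, eBayes with robust estimates or with the trend dropped, array weights, and single arrays or both first arrays left out. Same-numbered arrays of the zones did not deviate together (correlations of 0.0041, 0.036 and 0.037 over all probe sets).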

Additional observations from a re-analysis of the deposited data

How the results depend on the processing

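All 6 genes stayed higher in zone I under every alternative in which they were tested. The filter at the 40th percentile left only CEL5 among the 6 (1 called) and 1 called VND gene, since the others were too dim to be tested. Without the intensity trend 1 of the 6 was called (BRN1), while SMB, FEZ and CEL5, at the same -4.83, -4.43 and -4.08, no longer passed, and the counts higher in zone I fell to 6 for other cap genes and 1 for GH9 genes. With robust eBayes CEL5 (-4.08) was not called. BRN2 passed with 16 or 64 added (-1.97 and -1.27). With 1 array left out at a time, the differences ran from -6.54 to -3.96 for SMB, -5.45 to -3.68 for BRN1, -3.91 to -1.38 for BRN2, -5.87 to -3.58 for FEZ, -5.70 to -3.12 for CEL5 and -2.00 to -0.77 for CEL3. Between 1 and 5 of the 6 were then called, with 1 (SMB) without zone I array 2. Without the first array of both zones BRN2 (-4.50) and CEL3 (-2.68) passed and FEZ (-4.14) did not, and 3 other cap genes and 4 death genes were higher in zone II. Without zone II array 1 that cap count was also 3, and it ran from 3 to 5. BRN1 minus BRN2 turned to 0.23 without zone II array 1 (range -4.07 to 0.23), and SMB minus FEZ to 1.89 without zone II array 2 (range -2.97 to 1.89). With the replicate block, 8445 probe sets were called against 8623, and the calls of the 6 genes were the same (SMB adjusted p = 0.0126, limma). The probe sets called numbered 7081 to 9159 over all alternatives. Of those called, 52.3% were higher in zone I as reported, and 52.3% with the replicate block. The share of all probe sets toward zone I is printed here only for 64 added and without zone I array 1. A change in a list count is therefore not read as a result about that list. The cause of these changes was not tested. With 64 added, the 4 NAC differences ran from -1.96 to -1.12, and with 3 arrays per zone 1 dim array can move them.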

Other observations

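The drop of CEL5, RCPG and BRN1 on zone I array 1 was looked at across the array. Among the 11211 probe sets with a zone I mean above the median signal, 222 were at least 2-fold below on that array and 201 at least 2-fold above. On zone I arrays 2 and 3, 154 and 169 were at least 2-fold below. At least 8-fold below were 9 probe sets, of which 7 were called toward zone I and 1 toward zone II. Over all probe sets 19.8% and 18.1% were called in these directions. The 11211 were kept by their zone I signal, which by itself favours calls toward zone I. The genes named here were chosen after their values were seen, and no test was made of them. Dimmer probe sets, left out here, can lie further below, such as GH9B6 at 136-fold (1.39 against 242.3 and 148.5).

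Among these 11211 probe sets, the 15 furthest below on zone I array 1, CEL5 first, held 4 genes annotated as LEA-related and 2 jacalin lectin genes. How many of the 11211 carry these annotations was not counted, so the 4 and 2 are only a description. The LEA-related gene AT5G60530 had signals of 123.5, 1641 and 1273 in zone I and of 4.33, 2.43 and 9.22 in zone II. AT4G27400, of the same annotation, had 86.7, 1381 and 1124 in zone I and 52.9, 3.47 and 71.4 in zone II. The jacalin gene AT1G52070 stood at 956.3 against 6225 and 7328, above its highest zone II signal of 58.5. The putative pathogenesis-related gene AT1G50060 stood at 145.5 against 1201 and 1461.

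Some of the 15 had another pattern. The putative pyruvate decarboxylase gene AT4G33070 had signals of 24.2, 119.0 and 1478 in zone I, so that array 2 was low as well, and was not called between the zones (adjusted p = 0.584, limma). DGAT3 (AT1G48300) had 32.4, 229.9 and 654.6 in zone I, and its call was toward zone II (2.77, adjusted p = 0.0192, limma). ACO1, an enzyme of ethylene synthesis, stood at 130.2, 295.5 and 1563 in zone I.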
